A study of Mus musculus with 8 samples.

Results

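The genes described here are the 54 genes around *Neurod6* on mouse chromosome 6 that had a mean of 10 or more raw counts per library, out of 48709 genes listed in each count file. They were taken by position: every gene that overlaps chromosome 6 from 50677822 to 60681263 (GRCm38), which is 5 Mb on either side of *Neurod6*. The count files list 210 genes there, of which 109 had no count in any library and 101 had at least 1. The window was placed because the values of *Neurod6* and of its neighbour *Gm3279* in these libraries were known, so the values of both are given below as a description, with no p, and nothing is read from their calls. The other 52 genes were taken by position and count alone.

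*Neurod6*, also named *Nex*, encodes a basic helix-loop-helix transcription factor of the NEUROD family that is made by excitatory projection neurons of the cortex and hippocampus once they leave the cell cycle. Proteins of this family pair with E-proteins and bind short DNA motifs called E-boxes. Nex-Cre is a mouse allele in which Cre recombinase was placed into the *Neurod6* locus, so that Cre is made where *Neurod6* is. BAF155 and BAF170 are scaffold subunits of the BAF complex, which moves nucleosomes and so changes access to DNA.

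RNA was sequenced from cortical tissue of C57BL6/J mice at P1, or postnatal day 1, with 4 control and 4 dcKO_Nex-Cre libraries. The control mice were BAF155fl/+, BAF170fl/+ and Cre negative. The dcKO_Nex-Cre mice carried floxed *Smarcc1* (BAF155) and *Smarcc2* (BAF170) and the Nex-Cre allele, which deletes both genes in postmitotic projection neurons while other cells of the tissue keep them. Because no control carried Nex-Cre, the presence of the allele at *Neurod6* and the loss of both BAF subunits cannot be told apart in any value below. In bulk tissue, fewer cells of a type and less RNA per cell cannot be told apart either. The labels do not say that the libraries came from separate animals, so the p-values measure only the spread between these samples.

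Libraries held 17958641 to 35191912 counts. Levels are given as CPM, which are counts relative to the library size after TMM normalization. *Smarcc2* was at 428.5 to 486 CPM in the control and 241 to 292 CPM in the dcKO_Nex-Cre libraries, and *Smarcc1* was at 139 to 164 and 93.0 to 122 CPM, so that both targeted genes went with the labels. Mitochondrial genes took 2.33% to 6.87% of the counts, with the highest shares in control replicate 2 (6.87%) and dcKO_Nex-Cre replicate 4 (6.15%). The excitatory neuron marker *Tbr1* was present in every library.

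*Neurod6* (ENSMUSG00000037984) spans chromosome 6 from 55677822 to 55681263 on the minus strand. *Gm3279* (ENSMUSG00000108063), a long intergenic noncoding RNA gene, spans 55684571 to 55694574 on the plus strand. The pair is transcribed away from each other, with 3307 bases between the starts. The 250 bases before each start are shown because these flanks hold the ends of the interval in which the pair of genes with opposite values begins. They are RefSeq sequences on GRCm38.p6, 5′ to 3′ on the strand of the gene, from chr6:55681264-55681513 (minus) and chr6:55684321-55684570 (plus), with E-boxes (CANNTG, which reads the same on both strands) in capitals:
Neurod6: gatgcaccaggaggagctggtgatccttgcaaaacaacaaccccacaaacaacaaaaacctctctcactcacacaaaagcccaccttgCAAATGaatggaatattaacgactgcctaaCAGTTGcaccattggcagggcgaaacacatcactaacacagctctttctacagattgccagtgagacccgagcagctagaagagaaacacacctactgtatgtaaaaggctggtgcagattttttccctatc
Gm3279: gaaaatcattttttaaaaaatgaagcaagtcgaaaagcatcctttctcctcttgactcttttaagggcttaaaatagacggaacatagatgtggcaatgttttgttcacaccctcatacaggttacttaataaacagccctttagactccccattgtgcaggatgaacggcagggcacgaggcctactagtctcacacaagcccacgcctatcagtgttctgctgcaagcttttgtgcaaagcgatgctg
The *Neurod6* flank held 2 E-boxes, CAAATG and CAGTTG, which begin 162 and 132 bases before the start, and the *Gm3279* flank held none. At least 1 CANNTG was found in 66.2% of 32851 promoter flanks of this length, so its presence is common. Neither CAGATG nor CAGCTG, both special cases of CANNTG that 14.4% and 13.0% of flanks held on either strand, was found in the pair. The GC content was 46.0% before *Neurod6* and 43.6% before *Gm3279*, against a median of 52.4% over all flanks.

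*Neurod6* was at 676, 570, 750 and 584 CPM in control replicates 1 to 4 and at 411, 327, 372 and 437 CPM in dcKO_Nex-Cre replicates 1 to 4. No dcKO_Nex-Cre library reached the lowest control value, and 60.0% of the control mean remained. The fitted log2 fold change was -0.74 (standard error, SE, 0.12). Per kb of exon, its mean went from 300.1 CPM in the control to 180 CPM in the dcKO_Nex-Cre cortex, the highest level per length of all members in the control.

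*Gm3279* had 7, 17, 14 and 14 raw counts in the control libraries and 631, 418, 453 and 424 in the dcKO_Nex-Cre libraries. In CPM this was 0.321, 0.930, 0.584 and 0.617 against 18.3, 16.0, 18.7 and 23.8. The groups lay far apart, with the lowest dcKO_Nex-Cre library above the highest control library by more than a factor of 10. The fitted log2 fold change was 4.98 (SE 0.24).

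The pair therefore had opposite signs in all 4 dcKO_Nex-Cre libraries relative to the control. Per kb of exon, *Gm3279* was at 0.0934%, 0.321%, 0.153% and 0.208% of the *Neurod6* level in the control libraries. In the dcKO_Nex-Cre libraries it was at 8.76%, 9.65%, 9.89% and 10.7% of that level, so it was the minor transcript of the pair in every library. Within the libraries of lane tag 2, which hold all controls and 2 dcKO_Nex-Cre libraries, the log2 fold changes were -0.80 for *Neurod6* and 4.82 for *Gm3279*.

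**Figure D1:**
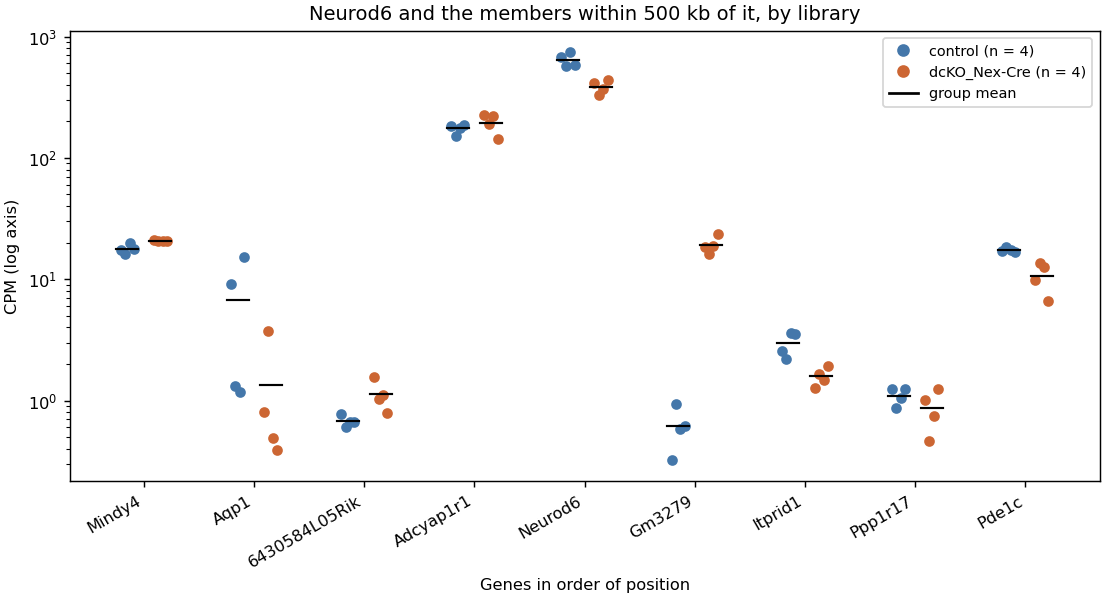
CPM on a log axis for *Neurod6*, *Gm3279* and the 7 other members within 500 kb, in order of position, with 1 point per library (4 control, 4 dcKO_Nex-Cre) and a line at each group mean. *Gm3279* is at 0.321 to 0.930 CPM in the control and 16.0 to 23.8 CPM in the dcKO_Nex-Cre libraries, and *Neurod6* at 570 to 750 and 327 to 437 CPM.

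The counts that follow leave out *Neurod6* and *Gm3279*, for which the window was placed. None of the other 52 members passed an adjusted p under 0.05 in either direction in edgeR, a threshold passed by 0.884% of the 16287 genes tested (0.375% higher and 0.51% lower). At an unadjusted p under 0.05, 19 of the 52 (36.5%) passed, 8 higher and 11 lower, whereas 13.6% of all genes tested did (6.59% higher and 7.05% lower). Among the 52, 14 (26.9%) had no overlap between the groups, 6 higher and 8 lower, against 8.0% of all genes tested (3.99% higher and 4.01% lower). The median log2 fold change of the 52 was -0.06 and that of all genes tested was 0.00, while the median size of the change, without sign, was 0.20 against 0.13. Whether these shares and medians differ from those of all genes was not tested.

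Adjusted calls among the 52 depended on the test, the filter and the libraries used. DESeq2's Wald test gave an adjusted p under 0.05 to 7 of them, when 3.16% of all genes had one. With no filter on low counts, edgeR called 2 of them, *Itprid1* and *Ppm1k*, when 0.86% of all genes were called. Without dcKO_Nex-Cre replicate 4, edgeR called 8 of the 52, when 7.73% of all genes were called. In the libraries with a mitochondrial share under 6%, which leaves 3 per group, it called 12 of the 52, when 1794 of all 16330 genes were called. The share with an unadjusted p under 0.05 stayed above that of all genes in smaller sets of libraries, by fewer percentage points than with all libraries. Without dcKO_Nex-Cre replicate 3 it was 28.8%, against 9.8% of all genes. It was 21 of 52 without dcKO_Nex-Cre replicate 4 (40.4%, against 28.2% of all genes) and 19 of 52 within lane tag 2 (36.5%, against 23.5%). Under the mitochondrial limit it was 21 of 52 (40.4%, against 28.4%).

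Among the nearest neighbours, *Itprid1* (ENSMUSG00000037973), whose protein carries an ITPR-interacting domain, lies 155632 bases beyond *Neurod6*. It was at 2.56, 2.19, 3.59 and 3.57 CPM in the control libraries and at 1.28, 1.65, 1.49 and 1.91 CPM in the dcKO_Nex-Cre libraries. All dcKO_Nex-Cre values were the lower ones. The log2 fold change was -0.93 (SE 0.22, edgeR adjusted p = 0.0834), and the adjusted p ranged from 0.0096 to 0.262 over the alternatives.

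*Pde1c* (ENSMUSG00000004347) encodes a calmodulin-dependent phosphodiesterase that breaks down cyclic nucleotides, and lies 388541 bases away on the same side. Its control libraries were close together at 17.1, 18.3, 17.4 and 16.6 CPM. The dcKO_Nex-Cre libraries were lower and more spread, at 9.86, 13.6, 12.5 and 6.62 CPM, with the lowest in replicate 4. The log2 fold change was -0.70 (SE 0.18, edgeR adjusted p = 0.125). Between *Itprid1* and *Pde1c*, the phosphatase inhibitor gene *Ppp1r17* was near 1 CPM in both groups, and its groups overlapped (log2 fold change -0.37, 95% interval -0.95 to 0.22).

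On the other side, *Adcyap1r1*, the gene of the receptor for the neuropeptide PACAP, lies 176371 bases from *Neurod6*. It was at 183, 152, 178 and 187 CPM in the control and at 225, 191, 220 and 143 CPM in the dcKO_Nex-Cre libraries. Replicates 1 to 3 of the dcKO_Nex-Cre group lay above every control library and replicate 4 below, so the groups overlapped. The log2 fold change was 0.16 (95% interval -0.10 to 0.42).

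*6430584L05Rik*, a noncoding RNA gene at 265537 bases, was at 0.778, 0.602, 0.668 and 0.661 CPM in the control and at 1.57, 1.03, 1.11 and 0.786 CPM in the dcKO_Nex-Cre libraries. The groups did not overlap, but the lowest dcKO_Nex-Cre library and the highest control library nearly touched. Its log2 fold change was 0.75 (SE 0.26, edgeR adjusted p = 0.247). *Mindy4*, whose product belongs to a family of deubiquitinases, was at 16.2 to 19.7 CPM in the control and at 20.6 to 21.2 CPM in the dcKO_Nex-Cre libraries (log2 fold change 0.23, SE 0.09, edgeR adjusted p = 0.287).

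*Aqp1*, the water channel of the choroid plexus, had the lowest log2 fold change of all members at -2.29, but with an SE of 1.03. Its values were 9.20, 1.31, 1.17 and 15.4 CPM in the control and 0.812, 3.72, 0.495 and 0.393 CPM in the dcKO_Nex-Cre libraries. The groups overlapped, since dcKO_Nex-Cre replicate 2 lay above control replicates 2 and 3. The choroid plexus transcript *Ttr* was high in the same libraries, at 718, 13.96, 89.0 and 1305 CPM in the control and 12.4, 543, 4.83 and 2.86 CPM in the dcKO_Nex-Cre libraries. The 8 choroid plexus markers summed to 24.6 to 1352 CPM in the control and 5.16 to 562 CPM in the dcKO_Nex-Cre libraries, none of the 6 that were tested passed an adjusted p of 0.05, and their part in the *Aqp1* values was not tested.

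**Figure D2:**
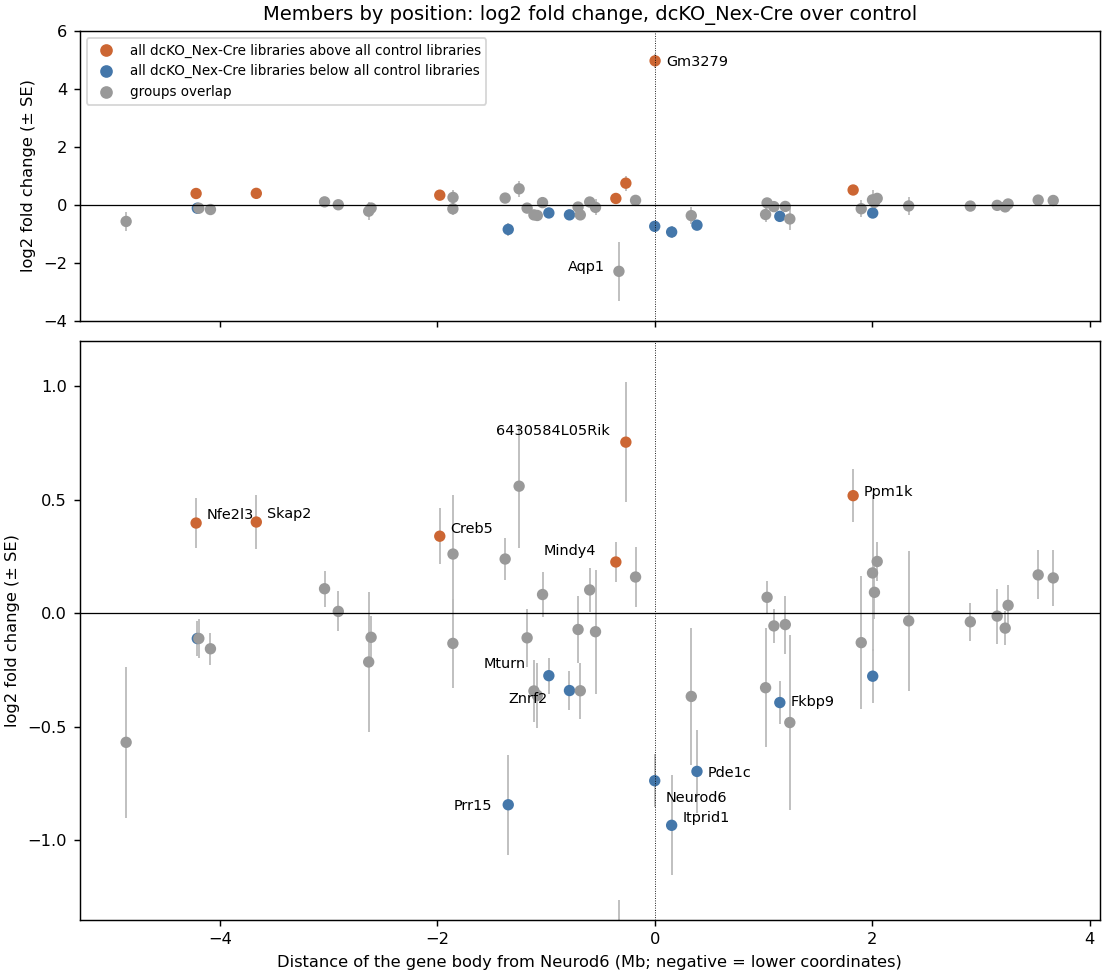
Fitted log2 fold change (dcKO_Nex-Cre over control, ± standard error) of the 54 members against distance from *Neurod6* in Mb, with the whole range above and an enlarged scale below, where *Gm3279* and *Aqp1* fall outside the axis. Orange and blue mark the 7 and 9 members whose dcKO_Nex-Cre libraries all lie above or all below the control libraries.

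Farther out, the member with the smallest adjusted p of the 52 was *Ppm1k* (ENSMUSG00000037826), which encodes a mitochondrial phosphatase that activates the breakdown of branched-chain amino acids. It was at 14.7, 14.8, 13.3 and 13.2 CPM in the control and at 19.1, 20.1, 24.1 and 16.7 CPM in the dcKO_Nex-Cre libraries, all above the control. This gave a log2 fold change of 0.52 (SE 0.12, edgeR adjusted p = 0.0755), with adjusted p between 0.00461 and 0.242 over the alternatives.

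*Nfe2l3*, which encodes a cap'n'collar bZIP transcription factor, was at 22.2, 18.3, 21.4 and 21.3 CPM in the control and at 32.5, 26.7, 26.5 and 23.8 CPM in the dcKO_Nex-Cre libraries. This was a log2 fold change of 0.40 (SE 0.11, edgeR adjusted p = 0.139). *Skap2*, the gene of a Src-family kinase adaptor, was at 8.24 to 9.43 CPM in the control and at 10.3 to 12.9 CPM in the dcKO_Nex-Cre libraries, also with a log2 fold change of 0.40 (SE 0.12, edgeR adjusted p = 0.169). *Creb5*, another bZIP factor gene, was at 5.25 to 6.46 and at 6.78 to 7.82 CPM (log2 fold change 0.34, edgeR adjusted p = 0.259). In these genes as well, no dcKO_Nex-Cre library lay within the control range.

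Of the members with lower dcKO_Nex-Cre libraries, *Fkbp9* (ENSMUSG00000029781), the gene of a prolyl isomerase of the endoplasmic reticulum, was at 59.0, 53.4, 60.9 and 58.5 CPM in the control. In the dcKO_Nex-Cre libraries it was at 45.2, 44.1, 50.02 and 37.0 CPM, below all control values. The fitted change was -0.39 on the log2 scale (SE 0.09, edgeR adjusted p = 0.0892). *Fkbp14*, a related gene, had a log2 fold change of -0.36 with overlapping groups (edgeR adjusted p = 0.302), and it shares 208 exon bases on the opposite strand with *Plekha8*, which had more counts.

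*Mturn* encodes maturin, a protein known from neural differentiation, and was one of the most abundant members. It was at 679, 694, 722 and 655 CPM in the control and at 599, 530, 607 and 537 CPM in the dcKO_Nex-Cre libraries. The highest dcKO_Nex-Cre library was below the lowest control library. The fitted change was -0.28 on the log2 scale (SE 0.08, edgeR adjusted p = 0.158).

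*Znrf2*, the gene of a membrane-associated E3 ubiquitin ligase, was at 198, 197, 206 and 167 CPM in the control and at 165, 139, 156 and 145 CPM in the dcKO_Nex-Cre libraries. The groups just missed each other, with 167 CPM in control replicate 4 and 165 CPM in dcKO_Nex-Cre replicate 1. The log2 fold change was -0.34 (SE 0.09, edgeR adjusted p = 0.120). *Prr15*, a proline-rich protein gene with few counts, was at 1.81 to 2.55 CPM in the control and at 0.786 to 1.46 CPM in the dcKO_Nex-Cre libraries (log2 fold change -0.84, edgeR adjusted p = 0.125).

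*Hnrnpa2b1*, an RNA-binding protein gene, had the most counts of all members. It was at 987 to 1035 CPM in the control and at 853 to 983 CPM in the dcKO_Nex-Cre libraries, so that the groups were separated by a narrow gap and the log2 fold change was only -0.11 (SE 0.08, edgeR adjusted p = 0.533). *Pyurf* completed the non-overlapping genes with a log2 fold change of -0.28 (edgeR adjusted p = 0.339). It shares 1005 exon bases on the same strand with *Gm37397*, so their counts are uncertain. Any gene whose groups do not overlap gets p = 0.0286 in a two-sided exact permutation test of the CPM, before any adjustment. This is the smallest p that 4 against 4 libraries allow. For the 14 genes, picked because their groups do not overlap, it restates that choice and adds no evidence.

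**Figure D3:**
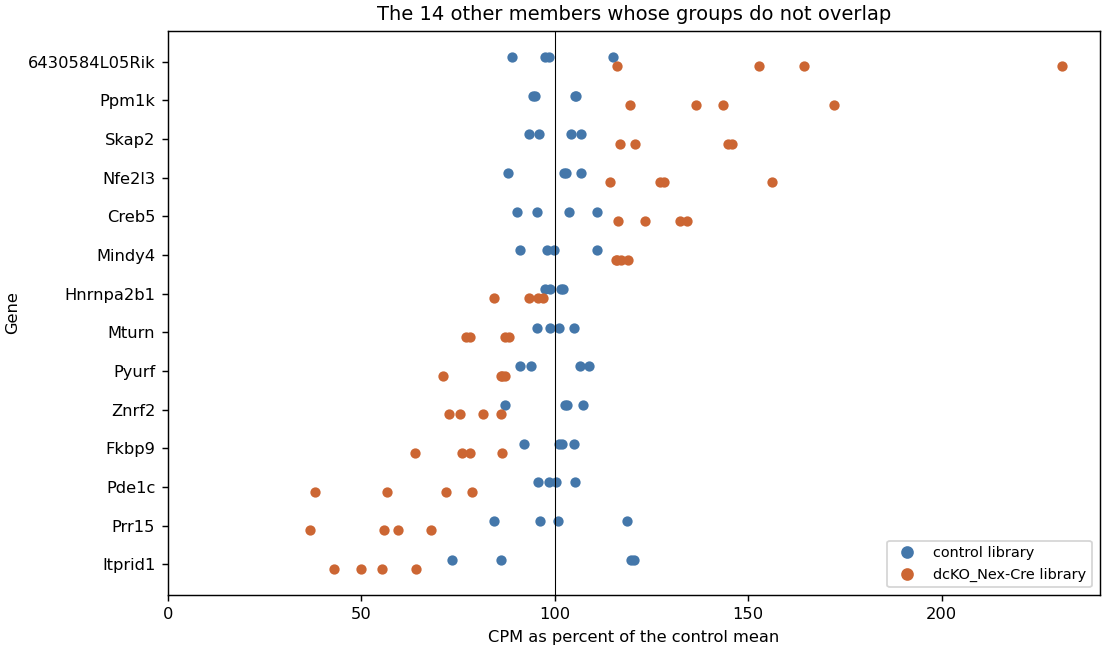
CPM as percent of the control mean for the 14 members besides *Neurod6* and *Gm3279* whose groups do not overlap, with 1 point per library. The 6 genes at the top have all dcKO_Nex-Cre libraries above the control and the 8 below have them all under it, and the gap between the groups is narrow for *6430584L05Rik*, *Hnrnpa2b1* and *Znrf2*.

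Per kb of exon, the 5 members with the highest mean in the control were *Neurod6* (300.1 CPM per kb), *Hnrnpa2b1* (154), *Mturn* (121), *Gars* (73.0) and *Lancl2* (56.0). *Gars*, the glycyl-tRNA synthetase gene, and *Lancl2*, a gene of the lanthionine synthetase C-like family, had overlapping groups and log2 fold changes of 0.10 (95% interval -0.09 to 0.29) and 0.09 (-0.13 to 0.32). *Neurod6*, *Hnrnpa2b1* and *Mturn* together took 47.0% to 49.3% of the summed CPM of the members in the control libraries and 41.1% to 46.1% in the dcKO_Nex-Cre libraries. The sum over the 52 members other than the pair was 4076 to 4326 CPM in the control and 3786 to 4115 CPM in the dcKO_Nex-Cre libraries.

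The lists by role are broad, and some genes fit the name of their list only loosely. None of the 8 genes listed as transcription and RNA regulators other than *Neurod6*, which include *Tax1bp1* and *Nod1*, passed the adjusted threshold. *Nfe2l3* and *Creb5* were on the higher side at an unadjusted p under 0.05, a limit passed by 6.59% of all genes tested on the higher and 7.05% on the lower side. *Tax1bp1*, an autophagy receptor gene, and *Jazf1*, a zinc finger gene, had overlapping groups and log2 fold changes of 0.01 (95% interval -0.17 to 0.18) and -0.11 (-0.29 to 0.08). The median of the 8 was -0.09. None of the 6 genes listed with receptors, channels and secreted peptides passed, with a median of -0.06. This list also holds *Abcg2*, *Gprin3* and *Prr15*, and *Prr15* was lower at an unadjusted p under 0.05. The efflux transporter gene *Abcg2* was at 22.1 to 26.2 CPM in the control and 23.4 to 24.98 CPM in the dcKO_Nex-Cre libraries.

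Of 9 cytoskeleton, trafficking and GTPase genes, none passed the adjusted threshold, while 3 higher and 2 lower had an unadjusted p under 0.05, as had 13.6% of all genes tested. The lower ones were *Snx10*, a sorting nexin gene, and *Scrn1*, the gene of secernin. *Scrn1* was at 281, 233, 275 and 289 CPM in the control and at 248, 219, 229 and 154 CPM in the dcKO_Nex-Cre libraries, where the groups overlapped (log2 fold change -0.34, SE 0.14, edgeR adjusted p = 0.300). The higher ones were *Skap2*, *Chn2*, which encodes a GTPase-activating protein for Rac, and *Vopp1*, at 195 to 229 CPM in the control and 222 to 276 CPM in the dcKO_Nex-Cre libraries.

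None of 5 signalling genes passed the adjusted threshold, with *Ppm1k* higher and *Mturn* and *Pde1c* lower at an unadjusted p under 0.05 and a median of -0.28. Of 8 metabolism and protein folding genes none passed, and at an unadjusted p under 0.05 *Mindy4* was higher and *Fkbp9*, *Fkbp14*, *Ggct* and *Pyurf* were lower, with a median of -0.16 (6.59% higher and 7.05% lower over all genes). These groups are small, and their shares were not tested against those of all genes. *Ggct* encodes an enzyme of glutathione breakdown. Among the 4 genes listed as ubiquitin genes none passed, and *Znrf2* alone of these had an unadjusted p under 0.05 (median -0.09). *Mindy4*, of a family of deubiquitinases, was not on this list and was counted with the metabolism genes above. *Herc3*, which encodes a HECT-domain ubiquitin ligase, was at 56.6 to 66.8 CPM in the control and 48.7 to 75.8 CPM in the dcKO_Nex-Cre libraries.

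Overlapping groups were found for 38 members, some of them described above. Toward the lower edge, *Cbx3*, which encodes the heterochromatin protein HP1 gamma and starts beside *Hnrnpa2b1*, was at 26.2 to 27.9 CPM in the control and 21.6 to 26.8 CPM in the dcKO_Nex-Cre libraries. *Snx10* was at 117 to 124 and 100.3 to 117 CPM. *Hibadh*, the gene of an enzyme of valine breakdown, was at 31.4 to 38.8 CPM in the control and in a narrow range of 37.6 to 39.3 CPM in the dcKO_Nex-Cre libraries.

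Closer to *Neurod6*, *Chn2* was at 35.4 to 39.7 CPM in the control and 38.5 to 49.1 CPM in the dcKO_Nex-Cre libraries. *Ggct* was at 14.3 to 16.3 and 10.7 to 15.2 CPM, where dcKO_Nex-Cre replicate 4 alone reached the control range. *Avl9*, a gene of the late secretory pathway, and *Kbtbd2*, the gene of a cullin-3 adaptor, were among the steadiest members. Their log2 fold changes were 0.07 (95% interval -0.07 to 0.21) and -0.06 (-0.20 to 0.09).

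Toward the upper edge, *Nap1l5*, an imprinted gene inside an intron of *Herc3*, was at 72.8 to 85.8 CPM in the control and 72.7 to 80.6 CPM in the dcKO_Nex-Cre libraries (log2 fold change -0.07, 95% interval -0.21 to 0.08). *Fam13a*, which encodes a protein with a GTPase-activating domain, was at 12.7 to 14.4 and 13.3 to 14.1 CPM. *Gprin3*, a gene linked to neurite outgrowth, was at 11.1 to 13.3 and 12.1 to 15.6 CPM. None of these had an unadjusted p under 0.05.

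The libraries with the highest mitochondrial shares, control replicate 2 and dcKO_Nex-Cre replicate 4, were the extremes of their groups for many genes, members or not. The pair is included in the counts of members here. In 14 of the 54 members (25.9%, against 19.8% of all genes tested), both of these libraries were the lowest of their group. *Scrn1*, *Adcyap1r1*, *Gars*, *Lancl2* and *Fkbp9* were among them. In 4 members (7.41%, against 21.4% of all genes), both were the highest of their group, and these were *Gm3279*, *Crhr2*, *Lsm5* and *Nt5c3*. *Lsm5*, a gene of the spliceosome-associated LSM ring, was at 6.32, 10.7, 5.42 and 6.34 CPM in the control and 4.29, 5.75, 4.42 and 8.59 CPM in the dcKO_Nex-Cre libraries. Whether these shares differ from those of all genes was not tested. The part of this difference between libraries in the group comparisons was not tested, beyond the values without these libraries given above.

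The changes were grouped by distance from *Neurod6*. Within 1 Mb, 7 of 13 members besides the pair (53.8%) had an unadjusted p under 0.05 and 6 had groups that did not overlap. From 1 to 2.5 Mb these were 9 and 5 of 23, and from 2.5 to 5 Mb they were 3 and 3 of 16 (18.8% for each). Over all genes tested the shares were 13.6% and 8.0%, and whether the members differ from these was not tested. The median size of the log2 fold change, without sign, was 0.34, 0.24 and 0.11 in the order of distance. The signed medians were -0.28, -0.05 and -0.03.

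Over the 52 members, distance and the size of the change had a Spearman rho of -0.295 and a Pearson r of -0.305. This is a description, since the genes share the same 8 libraries. Mean counts and the size of the change had a rho of -0.384 across the same genes, so low counts went with larger changes too. The number with an unadjusted p under 0.05 was nevertheless 16 of the 37 members with a mean of 100 or more counts and 3 of the 15 below. On the side of lower coordinates 13 of 30 (43.3%) had such a p, and on the other side 6 of 22 (27.3%).

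The same counts were made around the targeted genes and in the rest of chromosome 6. The controls also carried a floxed allele at each targeted gene but no Nex-Cre allele, so the regions are not alike in design. Within 5 Mb of *Smarcc1* on chromosome 9, 17 of 155 other genes had an unadjusted p under 0.05 and 11 had groups that did not overlap. Within 5 Mb of *Smarcc2* on chromosome 10 these were 11 (12.5%) and 9 of 88. In the rest of chromosome 6 they were 124 (16.0%) and 74 of 777, so the 36.5% around *Neurod6* was the highest of the 4 regions. Over all genes tested the shares were 13.6% and 8.0%. The difference between the regions was not tested.

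**Figure D4:**
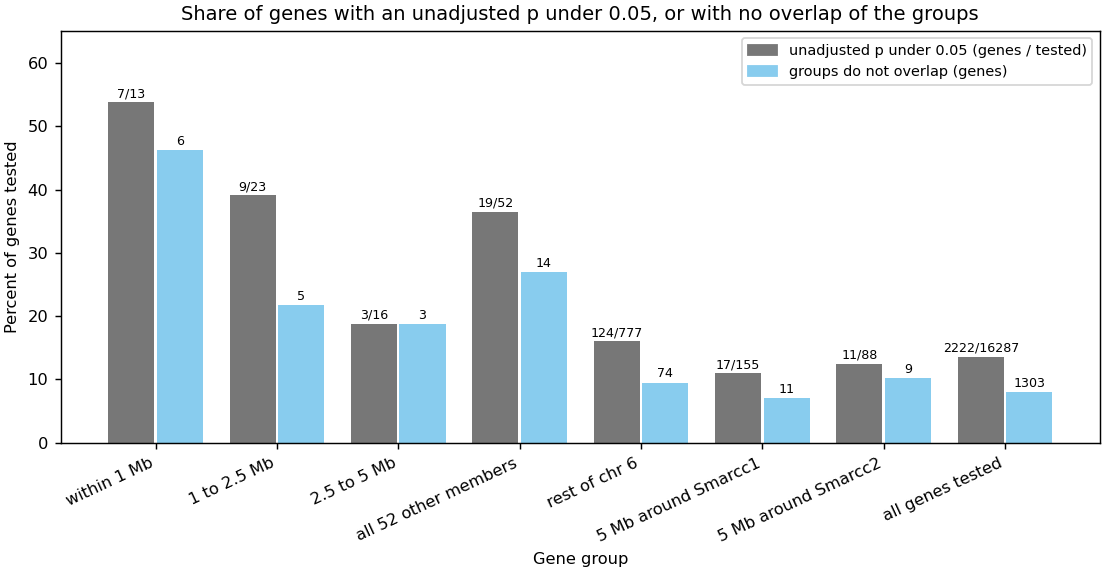
Percent of tested genes with an unadjusted p under 0.05 (grey) and with groups that do not overlap (blue), from a bar base of 0, for the members other than *Neurod6* and *Gm3279* by distance, for the other regions and for all genes tested. The grey bars go from 53.8% within 1 Mb to 18.8% at 2.5 to 5 Mb, beside 13.6% for all genes tested.

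Some gene clusters of the window had almost no counts. Of the 18 genes listed for the *Hoxa* cluster, which patterns the body axis outside the forebrain, 15 had no count in any library. Of 29 vomeronasal type 1 receptor genes and pseudogenes, 26 were at 0 and *Vmn1r4* was the only member, at 12.25 counts on average. A count of 0 in all libraries allows up to 3 counts of 189638371, or 0.0158 CPM, for counting error only. *Ghrhr*, the receptor gene for growth hormone-releasing hormone, 289292 bases from *Neurod6*, had a mean of 0.25 counts.

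Of the 54 members, 46 were protein-coding, out of 75 protein-coding genes listed in the window, and 4 were long intergenic noncoding RNA genes, out of 24. Exon bases were shared with a gene on the opposite strand by 12 members, and the library kit does not mark strand, so reads there cannot be assigned to a strand. In 4 of them the partner had more counts, namely *Gm16499*, *9130019P16Rik*, *Wipf3* and *Fkbp14*. *Neurod6* and *Gm3279* share no exon bases with each other.

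No other NEUROD gene was called. Of 12 tested family members and partners other than *Neurod6*, 1 passed an adjusted p of 0.05, *Id2*, which was lower (0.884% of all genes tested passed). *Neurod2* was at 214 to 254 CPM in the control and 200 to 242 CPM in the dcKO_Nex-Cre libraries (log2 fold change -0.06, edgeR adjusted p = 0.782). *Neurod1* was at 36.0 to 50.2 CPM in the control and 51.7 to 64.1 CPM in the dcKO_Nex-Cre libraries (log2 fold change 0.36, SE 0.12, edgeR adjusted p = 0.214). *Bhlhe22*, a related factor of upper-layer neurons, had a log2 fold change of -0.13 (edgeR adjusted p = 0.643).

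The E-protein genes *Tcf3*, *Tcf4* and *Tcf12*, whose products pair with NEUROD factors, had log2 fold changes of 0.00, 0.09 and 0.15, none past the threshold. *Id2*, which encodes an inhibitor that captures E-proteins, had a mean ± SD over 4 libraries of 422 ± 32.0 CPM in the control and fell to 275 ± 52.3 CPM, with a log2 fold change of -0.62 (SE 0.12, edgeR adjusted p = 0.0457). *Id1*, *Id3* and *Id4* did not pass, with log2 fold changes of -0.28, -0.17 and 0.02.

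Markers of excitatory neurons, the cells in which *Neurod6* is made, gave 1 lower and 0 higher gene of 21 tested at an adjusted p under 0.05. The lower one was *Emx1* (log2 fold change -0.60, edgeR adjusted p = 0.0332). Over all genes tested, 0.375% were called higher and 0.51% lower. At an unadjusted p under 0.05, 3 of the 21 were lower and 0 higher, against 7.05% and 6.59% of all genes. Besides *Emx1* these were *Fezf2* (log2 fold change -0.55) and *Slc17a7* (-0.54). The 21 markers summed to 3418 to 3806 CPM in the control and 3342 to 3994 CPM in the dcKO_Nex-Cre libraries, and the median log2 fold change was -0.02. *Tbr1* was at 174 to 186 and 164 to 191 CPM. Markers of oligodendrocyte precursors summed to 187 to 277 CPM in the control and 271 to 339 CPM in the dcKO_Nex-Cre libraries. Of the 6 markers, *Cspg4* passed (log2 fold change 0.56, edgeR adjusted p = 0.0355), and it is also the only one called of the 8 endothelial and mural markers. Of 8 microglia markers, *C1qb* was higher (0.46, edgeR adjusted p = 0.0422), and the list summed to 108.5 to 126 CPM in the control and 113 to 151 CPM in the dcKO_Nex-Cre libraries. The microglia markers did not go 1 way. A log2 fold change above 0 was found for 5 of the 8, and *P2ry12* was lower (-0.57, edgeR adjusted p = 0.0596). Of 9 striatal markers, *Ppp1r1b* was higher (0.96, edgeR adjusted p = 0.0399), and the list summed to 101.5 to 184 and 92.5 to 353 CPM. No tested marker of interneurons, astrocytes and radial glia, choroid plexus, Cajal-Retzius cells or blood cells passed. The part of other cell types in the values of the window was not tested.

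Just inside the limit of 10 counts lay *Gm15573* at 11.5, *Vmn1r4* at 12.25 and *C530044C16Rik* at 12.5 counts on average, and just outside it lay *Gm44008* at 7.25, another gene named *Gm16499* (ENSMUSG00000108175) at 6.75 and *4921529L05Rik* at 6.375. By position, *C530044C16Rik* was the farthest member on the lower side, at 4862789 bases, and *Gprin3* on the upper side, at 3665963 bases. The nearest gene left out on the lower side was *4921507P07Rik*, at 5081190 bases. It was at 2.56 to 3.34 CPM in the control and 2.03 to 2.56 CPM in the dcKO_Nex-Cre libraries.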

How the data were processed

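As deposited by the authors, the files hold raw counts for Ensembl genes, unnormalized, with 1 file for each of 8 samples of P1 cortex (4 control, 4 dcKO_Nex-Cre). Libraries were made from whole-tissue total RNA with a TruSeq v2 kit. The submitters' processing notes name mm10, while the aligner, counter and annotation are not given in the sources used here. Groups come from the labels and genotypes from the paper. Positions and lengths come from GENCODE M21, in which 48349 of 48709 IDs were found and 360 were not.

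Counts were tested in edgeR 4.0.16 (R 4.3.3) with filterByExpr, TMM and the robust quasi-likelihood F test without covariates, and p-values were adjusted over all 16287 genes tested by the Benjamini-Hochberg method with a threshold of 0.05. All 54 members passed this filter. Totals of 17958641 to 35191912 counts and 4 libraries per group set the precision. Libraries of a group were no copies of each other (lowest chi-square per degree of freedom 3.77). Lane tags, taken from file names and not used for groups, were 2 for all controls and dcKO_Nex-Cre replicates 1 and 2, and 8 for replicates 3 and 4. The method was tested on simulated data, where it recovered 92 of 100 genes changed by 1 on the log2 scale. It recovered 100 of 100 changed by 2, and made 8 false calls. Changes smaller than 1, which most of the 52 members other than the pair had, were not simulated. Flanking sequences came from RefSeq, where 48 of the 54 members were found.

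The members and gene lists were chosen with earlier results of these data known. Named with values were the pair, members with an adjusted p under 0.05, those within 500 kb, the 5 largest increases and decreases among members with at least 100 counts, the 5 highest per kb, up to 10 non-overlapping members by count with the rest by name, examples from each list and genes at the limits. *Prr15*, *Pyurf*, *Ghrhr* and the members described for their overlapping groups or their lowest and highest libraries lie outside this rule and were given values after these were seen. Some genes that the rule names are not reported here. Alternatives were DESeq2 1.42.0 (size factors, or the Wald test), limma-voom 3.58.1, no filter, at least 10 counts in every sample, a replicate block, lane tag 2 only, each library left out, and narrower windows. The unadjusted p and the fit to libraries with a mitochondrial share under 6% were chosen after seeing the data.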

Additional observations from a re-analysis of the deposited data

Results flagged for a closer look

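Among 112 groups of 4 values (the CPM of the 54 members and library measures, in each group), 6 held a library far from the other 3, and chance gives about 1 in 20, or 5.6 groups. *Aqp1* reached 3.72 CPM in dcKO_Nex-Cre replicate 2, against 0.393 to 0.812 CPM in the rest of its group, and replicate 2 also had the most *Ttr* of that group. *Pyurf* was at 7.22 CPM in dcKO_Nex-Cre replicate 1, against 8.74 to 8.83 CPM in the others. *Gm37397*, which overlaps *Pyurf*, was at 0.551 CPM in the same library, against 1.42 to 1.57 CPM. *Plekha8* was at 29.1 CPM in dcKO_Nex-Cre replicate 3, against 31.5 to 31.9 CPM. In the control, *Nod1* was at 2.88 CPM in replicate 1, against 3.48 to 3.56 CPM, and *Herc3* at 56.6 CPM in replicate 2, against 65.5 to 66.8 CPM. The cause of these values was not tested.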

How the results depend on the processing

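The log2 fold changes kept their sign in every alternative run, from -0.85 to -0.66 for *Neurod6* and from 4.77 to 5.23 for *Gm3279*, which gave no value with at least 10 counts in every sample. Of 335 alternative fits of the 21 other named genes, 311 kept their side of the threshold, 24 (of 10 genes) passed it and none reversed. Members called higher and lower were 1 and 1, the pair for which the window was placed, and became 3 and 6 with DESeq2's Wald test (3.16% of all genes called), 2 and 2 without a filter (0.86%), 6 and 8 in libraries with a mitochondrial share under 6% (5.49% higher and 5.5% lower over all genes), and 0 and 1 with at least 10 counts in every sample, where *Gm3279* is not tested. With 1 library left out, only the run without dcKO_Nex-Cre replicate 4 called members other than the pair. It called 5 higher and 5 lower, the pair included, and 8 without the pair. Over all genes, 3.98% were then called higher and 3.74% lower. The calls in the other such runs were those of the pair alone, and nothing is read from them. Members whose groups do not overlap, the pair included, were 16, of which 8 lay within 1 Mb. Without the pair they were 14 of 52 (26.9%, against 8.0% of all genes tested) and 6 of 13 within 1 Mb. With the pair included they became 26 under the mitochondrial limit (33.6% of all genes then) and 24 in lane tag 2 (35.3%). With 1 library left out they were 17 to 22 (9.63% to 27.0%). Of the other members, 19 had an unadjusted p under 0.05 (13.6% of all genes tested), and 7 of these lay within 1 Mb. With 1 library left out, 13 to 21 had such a p (9.62% to 28.2% of all genes). The median log2 fold change of -0.0611 was -0.0751 in lane tag 2, -0.0465 under the mitochondrial limit, -0.0769 within 2.5 Mb, -0.275 within 1 Mb, -0.0383 at 100 or more counts and -0.0705 to -0.0272 with 1 library left out.

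Same-numbered libraries correlated by 0.126, 0.0179, 0.135 and -0.138, so the replicate numbers were not taken as pairing. With the replicate block, none of the 52 members other than the pair was called, while adjusted calls over all genes went to 21 higher and 33 lower. An unadjusted p under 0.05 was found for 15 of the 52 (28.8%), against 12.1% of all genes tested. The median was -0.0652 with the block. Counting error is largest for the 15 members with a mean under 100 counts.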
